A study of Mus musculus with 6 samples.

Results

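The clustered protocadherins are cell-surface adhesion proteins encoded by 3 tandem arrays, Pcdha, Pcdhb and Pcdhg, on mouse chromosome 18. They were taken as the genes of the curated RefSeq annotation of mm10 on that chromosome whose symbols begin with Pcdha, Pcdhb or Pcdhg. This gave 58 of the 26180 annotated genes, namely 14 Pcdha, 22 Pcdhb and 22 Pcdhg genes, and all but the pseudogene Pcdhgb8 are annotated as protein-coding. Lsd1 peaks were counted when their centre lay between 20 kb before the Pcdha1 start and 20 kb after the end of the last Pcdhg exon, which is chromosome 18 from 36910285 to 37861873, or 952 kb.

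Binding of Lsd1 was measured by ChIP-seq in C2C12, a line of mouse myoblasts, on day 1 of differentiation. Wild-type cells were kept in myogenic medium, which held horse serum at a low concentration, or in adipogenic medium, which held fetal calf serum, isobutylmethylxanthine, indomethacin, dexamethasone, insulin, thyroid hormone and rosiglitazone. The LSD1(OE) cells were kept in the same adipogenic medium, and they are a separately derived, G418-selected line that carries Flag-tagged LSD1 on a lentivirus under a tetracycline-dependent promoter, induced with doxycycline from before differentiation. For wild-type cells no doxycycline is listed, so the drug, the selected line and the added LSD1 cannot be told apart. The antibody recognised the C-terminus of Lsd1, so it did not separate the cells' own protein from the Flag-tagged form. Each condition had 1 ChIP library and 1 input library, no value has a replicate, and a difference between conditions is a difference between single libraries. After duplicates had been limited, 46155625 ChIP tags remained for the myogenic, 63915769 for the adipogenic and 55193310 for the LSD1(OE) library, whose peak lists held 43426, 18893 and 33533 peaks, so the deepest library had the fewest peaks. RNA was not analysed here, so neither the levels of the members nor the myoblast markers that would check the label of the cells are known.

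Each variable exon of the 3 arrays has its own promoter. The variable exons of Pcdha and of Pcdhg are spliced to constant exons shared by the whole array, whereas the Pcdhb genes stand alone without constant exons. In neurons each cell uses a small and largely random set of the alternate promoters, which gives its surface a distinct combination of isoforms, while the C-type exons at the end of the Pcdha and Pcdhg arrays are used more uniformly. CTCF and cohesin bind many of these promoters, and enhancers lie downstream of the Pcdha and Pcdhg arrays. Lsd1 (Kdm1a) removes methyl groups from mono- and dimethylated lysine 4 of histone H3 and acts within the CoREST complex, among others.

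All members lie on the plus strand in the order Pcdha, Pcdhb, Pcdhg. The Pcdha array spans 257 kb from 36930285 to 37187663, with a median of 7.44 kb between neighbouring transcription start sites (TSSs). Its 3 constant exons, of 59, 89 and 2718 bp, are shared by all 14 Pcdha genes. The Pcdhb array spans 256 kb from 37264998 to 37521419, with a median of 7.84 kb between TSSs. The Pcdhg array spans 180 kb from 37661775 to 37841873, with a median of 5.33 kb between TSSs, and all 22 of its genes end in constant exons at 37825021 to 37825079, 37833265 to 37833353 and 37839903 to 37841873.

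A promoter peak of a gene is here a peak whose centre has that gene's TSS as its nearest, no more than 2000 bp away. In the myogenic library 2 of the 58 members had a promoter peak, Pcdhgc3 and Pcdhgc5, or 3.45% (95% Wilson interval 0.951 to 11.7%), whereas 40.5% of all 26180 genes had one. In the adipogenic library 0 of 58 members had one (up to 6.21%), against 23.2% of all genes. In the LSD1(OE) library only Pcdhgc3 had one, or 1.72% of the members (0.305 to 9.14%), against 32.3% of all genes. Pcdhgc3 and Pcdhgc5 are C-type exons of the Pcdhg array. The other 56 members were without a promoter peak in all 3 libraries. The Wilson intervals and the Poisson intervals used further on cover counting error only, and neighbouring members share sequence and surroundings, so they are not independent draws. No test was made between the members and the other genes.

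Counts were low in each array. None of the 14 Pcdha genes (up to 21.5%) and none of the 22 Pcdhb genes (up to 14.9%) had a promoter peak in any library. Of the 22 Pcdhg genes, 2 had one in the myogenic library (9.09%, 2.53 to 27.8%), 0 in the adipogenic library and 1 in the LSD1(OE) library (4.55%, 0.807 to 21.8%). All of these belong to the 5 C-type genes, of which 2 in the myogenic library (40%, 11.8 to 76.9%), 0 in the adipogenic library (up to 43.4%) and 1 in the LSD1(OE) library (20%, 3.62 to 62.4%) had a promoter peak. With 5 genes these intervals include the shares of all genes, so the low counts are those of the 53 alternate genes, none of which had a promoter peak. The C-type genes of the Pcdha array, Pcdhac1 and Pcdhac2, and the remaining C-type gene of the Pcdhg array, Pcdhgc4, had none. Among the other 600 annotated genes of chromosome 18, 44.2, 21.2 and 35.8% had a promoter peak in the myogenic, adipogenic and LSD1(OE) libraries, so these shares lie near those of all genes and above the upper bounds for the members. For protein-coding genes the shares were 46, 26.7 and 36.8%.

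**Figure D1:**
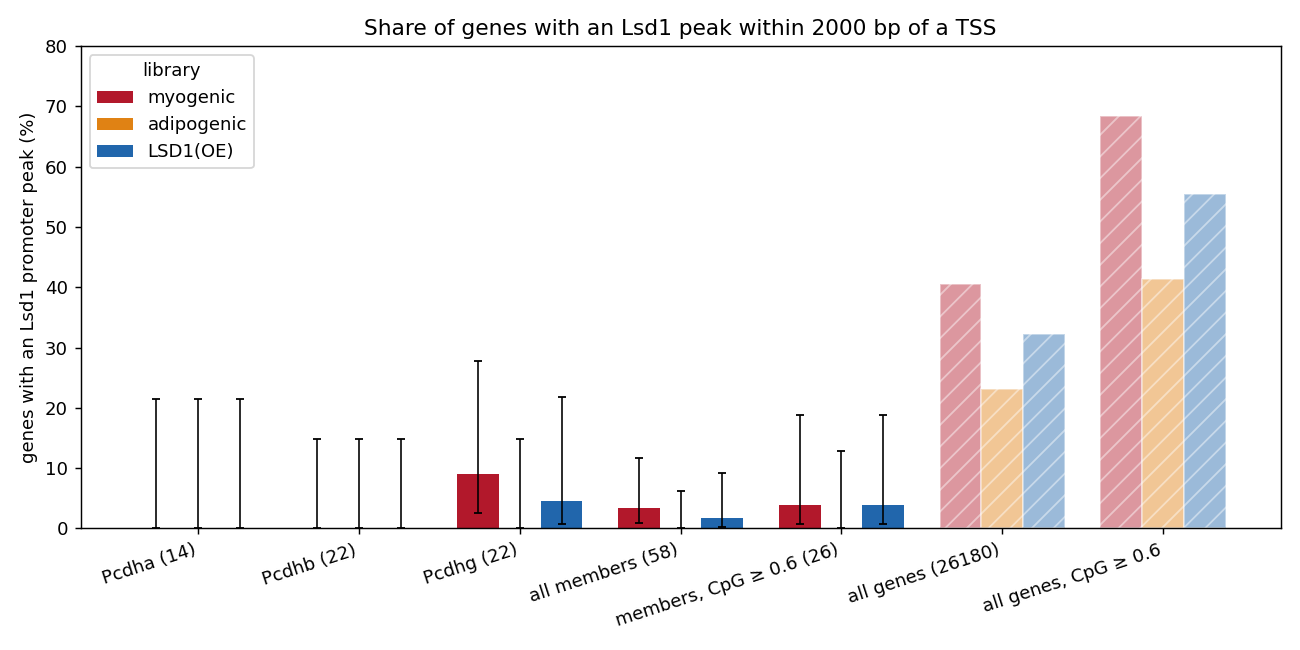
Share of genes with an Lsd1 peak within 2000 bp of a TSS (y axis, %) for each array, all members, members with a CpG ratio of at least 0.6, all genes, and all genes with such a ratio (x axis, number of genes in brackets where given), by library. Error bars are 95% Wilson intervals. The bars of the Pcdha and Pcdhb genes are at 0 in all 3 libraries, whereas all genes reach 40.5, 23.2 and 32.3%.

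Promoters rich in CpG held Lsd1 peaks more often than others, so the members' base composition was set beside their peaks. The observed over expected CpG ratio within 500 bp of the TSS had a median of 0.57 over the 58 members and of 0.51 over all 31647 curated TSSs. It ranged from 0.61 to 0.80 in the Pcdha genes (median 0.71), from 0.16 at Pcdhb9 to 0.55 in the Pcdhb genes (median 0.39) and from 0.25 to 0.89 at Pcdhga11 in the Pcdhg genes (median 0.62). All Pcdha promoters, no Pcdhb promoter and part of the Pcdhg promoters thus had a ratio of at least 0.6, which 43.1% of all TSSs had. Of the 26 members with such a ratio, 1 in the myogenic library (3.85%, 0.682 to 18.9%), 0 in the adipogenic library (up to 12.9%) and 1 in the LSD1(OE) library had a promoter peak, and in both cases it was Pcdhgc3. Over the 11848 genes with such a ratio the shares were 68.4, 41.3 and 55.4%. The members that had a promoter peak did not share this feature, since the ratio was 0.80 at Pcdhgc3 and 0.25 at Pcdhgc5.

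The members are paralogs, and a 50 bp read that matches several of them cannot be placed. The share of positions within 2000 bp of a TSS at which the 50-mer occurs once in the genome was therefore counted. It ranged from 83.6 to 100% over the 58 members with a median of 96.7%, and it was lowest in the Pcdha genes (median 91.3%) and higher in the Pcdhb (97.4%) and Pcdhg genes (98.1%). Thus in every member promoter most 50-mers occurred once in the genome. Only exact matches were counted, so copies that differ by a single base count as unique here. The share at promoters outside the region was not counted. Within the Pcdha variable exons themselves the share fell to 74.0% in the lowest and had a median of 86.0%. At Pcdhac1, Pcdhac2, Pcdhgc3, Pcdhgc4 and Pcdhgc5 it was 100% of the promoter window, and of these only Pcdhgc3 and Pcdhgc5 had a peak there.

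**Figure D2:**
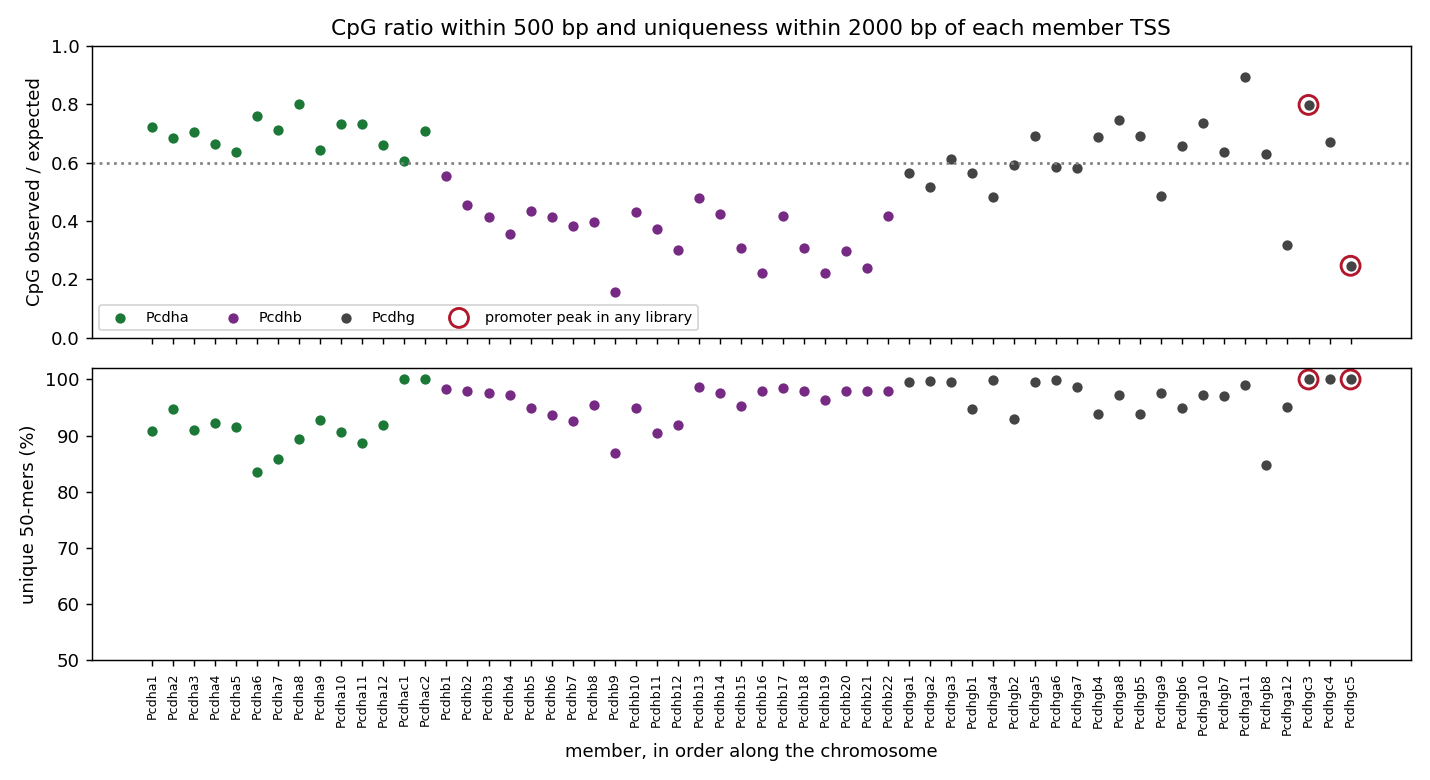
Observed over expected CpG ratio within 500 bp of the TSS (top, y axis) and percent of unique 50-mers within 2000 bp of the TSS (bottom, y axis, from 50%) for the 58 members in their order along the chromosome (x axis), with rings around those with a promoter peak in any library. The dotted line marks a ratio of 0.6, and the rings are on Pcdhgc3 and Pcdhgc5.

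The whole region held 11 peaks in the myogenic, 4 in the adipogenic and 13 in the LSD1(OE) library. Per Mb these were 11.6, 4.20 and 13.7 peaks, close to the 11.9, 4.45 and 10.2 per Mb of chromosome 18 as a whole, and the genome held 15.9, 6.93 and 12.3 per Mb. The total number of peaks in the region was therefore near that of its chromosome, but their positions were not spread over it. In the myogenic and adipogenic libraries all peaks, and in the LSD1(OE) library 11 of 13, lay in the last 57.5 kb, from 2 kb before the Pcdhgc3 TSS to the end of the region. This stretch is 6.04% of the region and held 191, 69.6 and 191 peaks per Mb; its border was chosen after the positions had been seen. The 143 kb of the Pcdhg array before it, which hold the 19 alternate Pcdhg genes, had 0 peaks in all 3 libraries. So had the Pcdha array with its constant exons, the 20 kb before Pcdha1 and the 140 kb between the Pcdhb and Pcdhg arrays. Unique 50-mers made up 99.1% of the last 57.5 kb and 95.6% of those 143 kb. They made up 83.1% of the Pcdha array, 87.5% of the Pcdhb array and 74.1% of those 140 kb. Whether this share bears on the positions of the peaks was not tested.

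**Figure D3:**
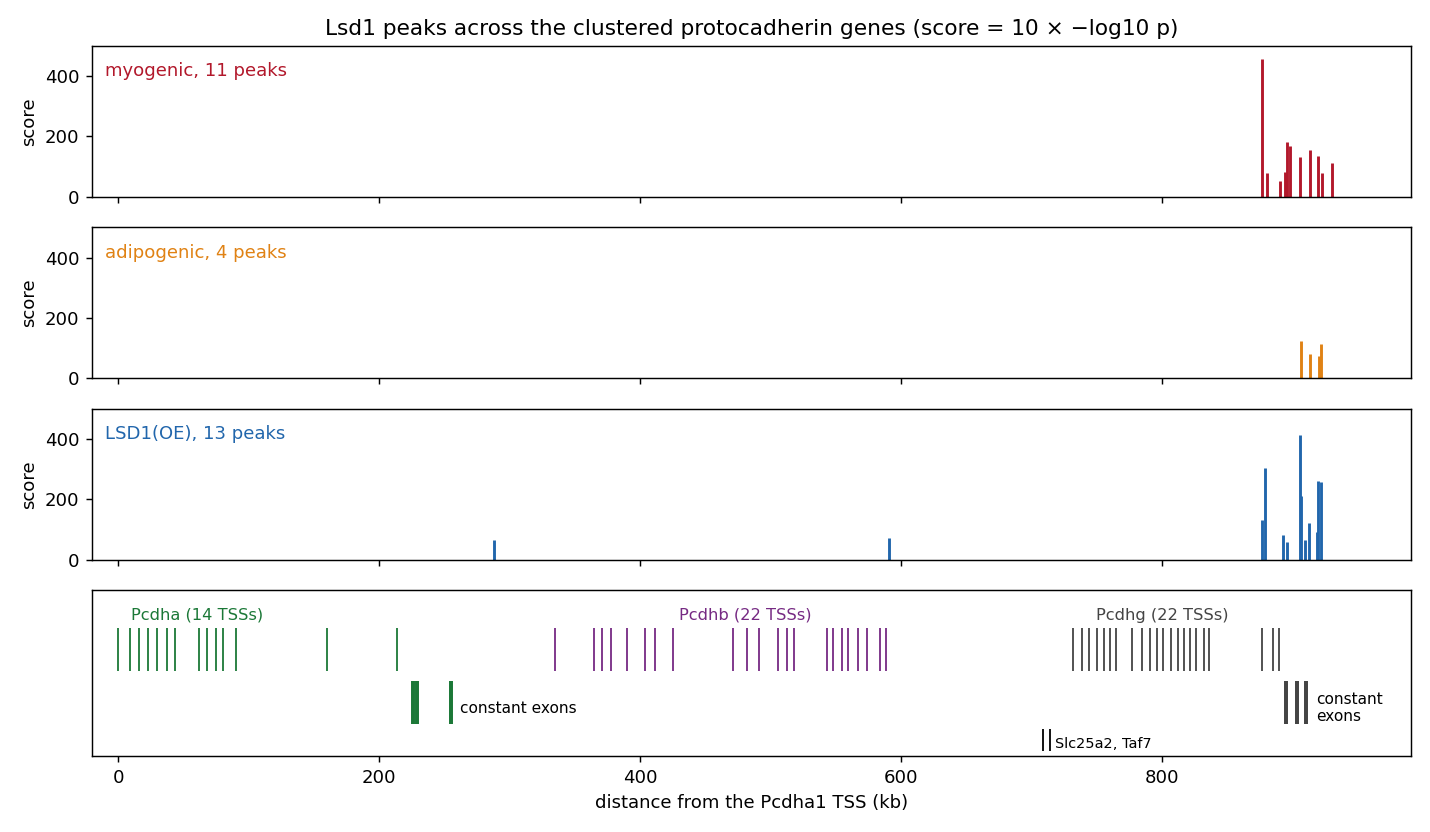
Lsd1 peaks across the clustered protocadherin genes by distance from the Pcdha1 TSS (x axis, kb), with the MACS score of each peak as the height of a line (y axis), for the 3 libraries, and below them the TSSs of the members, the constant exons of Pcdha and Pcdhg, and the genes Slc25a2 and Taf7. The 11 myogenic, the 4 adipogenic and 11 of the 13 LSD1(OE) peaks stand at the right end.

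The peak-free sequence was long. In the myogenic library no peak lay between 36802203, at the Vault RNA gene Vaultrc5, and 37805571, at Pcdhgc3, a stretch of 1003 kb that contains the TSSs of 55 members. In the adipogenic library the stretch ran for 1100 kb, from 36735549 to 37835183, and contained all 58 member TSSs. In the LSD1(OE) library it ran for 482 kb, from 36735600 to 37217967, and contained the 14 Pcdha TSSs. Of all gaps between neighbouring peaks on the same chromosome, 0.940% (408 of 43405), 2.45% (463 of 18873) and 2.77% (928 of 33512) were at least as long. By number such gaps were thus a small part of all gaps in each library, but they were not particular to these genes. Long gaps cover more sequence than short ones, so their share of the genome is larger than these percentages and was not counted.

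Members also lay far from peaks one by one. No peak lay within 50 kb of the TSS of 53, 55 and 44 of the 58 members in the myogenic, adipogenic and LSD1(OE) libraries (91.4, 94.8 and 75.9%), whereas this was so for 26.8, 44.2 and 32.6% of all genes. The median distance from a member TSS to the nearest peak was 181, 248 and 90.4 kb, compared with 4.00, 34.7 and 13.1 kb over all genes. All 14 Pcdha genes were beyond 50 kb in each library, and so were all 22 Pcdhb genes in the myogenic and adipogenic libraries and 13 of them in the LSD1(OE) library. The adjacency of the members makes these distances a property of a few gaps, not of 58 separate places.

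The genes that sit between the arrays were without promoter peaks as well. Taf7, which encodes a subunit of the general transcription factor TFIID, has a CpG ratio of 1.07 and a promoter window of 100% unique 50-mers, and it had no promoter peak in any library. Slc25a2, a mitochondrial ornithine carrier gene, had none either. No gene other than a member had a promoter peak inside the region. Beyond the region, the promoter of Diaph1, a formin gene that follows Pcdhg on the other strand, held a peak in all 3 libraries, with scores of 116, 84.6 and 54.8 in the myogenic, adipogenic and LSD1(OE) lists. The score is 10 times −log10 of the p-value that MACS gives a peak against its local background.

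Pcdhgc3, the variable exon used most broadly among the C-type exons, held the strongest member promoter peak. In the myogenic library it spanned 37805571 to 37807379, its centre was 65 bp downstream of the TSS at 37806410 within the variable exon, and it held 130 tags with a score of 458. The adipogenic library had no peak there, and the nearest lay 29.8 kb downstream. In the LSD1(OE) library the peak spanned 37805950 to 37806917, was centred 23 bp downstream of the TSS, and held 62 tags with a score of 130. The peak was thus present in 2 libraries and missing from the list of the third. Because scores grow with depth, the tags were also given per kb of the called peak and per 1000000 ChIP tags. This density was 1.56 (95% Poisson interval 1.30 to 1.85) in the myogenic and 1.16 (0.890 to 1.49) in the LSD1(OE) library, and these intervals overlap.

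The densities at Pcdhgc3 were set beside those of the whole adipogenic list, since signal outside called peaks was not analysed here. The peak with the lowest density of the adipogenic list had 0.863. The myogenic density of the Pcdhgc3 peak would stand at percentile 93.6 of the adipogenic list and the LSD1(OE) density at percentile 53.7. Densities as high as these thus occurred among the called adipogenic peaks. The adipogenic signal and local background at Pcdhgc3 itself are not known, and MACS calls peaks against that background. These ranks therefore do not tell why the adipogenic list has no peak there, which was not tested. When only the 18893 highest-scoring peaks of each library were used, the Pcdhgc3 peak was still present in the myogenic and LSD1(OE) libraries.

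Downstream of the Pcdhgc3 TSS the myogenic and LSD1(OE) libraries had further peaks at different places. In the LSD1(OE) library a peak of 118 tags ran from 37807802 to 37809278, scored 305 and had a density of 1.45 (1.20 to 1.73). Its centre, in the Pcdhgc3 exon, was 2130 bp from the TSS and so 130 bp beyond the promoter window. It was stronger than the LSD1(OE) peak at the promoter itself. The myogenic library held a peak in the intron from 37809682 to 37810335, with 35 tags and a score of 80.5. The adipogenic library had neither.

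Pcdhgc5, the last variable exon before the constant exons, had a promoter peak in the myogenic library only. It spanned 37819863 to 37820453, was centred 612 bp downstream of the TSS at 37819546 within the exon, and held 28 tags with a score of 52.2. It had the lowest score and the fewest tags of the 28 peaks of the region, though not the lowest density (1.03, against 0.908 for an adipogenic peak). Of the myogenic peaks 6.56% had a score at or below it. Its FDR was 0.36%, and 27 tags was the smallest count of any myogenic peak. The Pcdhgc5 peak was lost with an FDR of at most 0.1%, with a score of at least 100 and with equal numbers of peaks. It was also lost when its score was divided by the factor by which MACS scaled the ChIP tags up, which gave 27.5. This division only approximates unscaled tags, since no peaks were called anew. In the LSD1(OE) library the nearest peak, from 37822021 to 37822731, lay 2830 bp downstream of the Pcdhgc5 TSS in the intron, with 43 tags and a score of 82.4. Pcdhgc4, which lies between Pcdhgc3 and Pcdhgc5, had no promoter peak, and its nearest peaks were 5071, 21147 and 6539 bp away in the myogenic, adipogenic and LSD1(OE) libraries.

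The constant exons of Pcdhg, which encode the shared cytoplasmic tail, held 4 peaks in the myogenic, 1 in the adipogenic and 4 in the LSD1(OE) library, counted from 2000 bp before the first of them to the end of the last. The constant exons of Pcdha held none in any library. All 9 of these Pcdhg peaks were centred in introns, and the myogenic peak from 37824856 to 37826040, with 70 tags and a score of 181, was the only 1 of the 28 that overlapped a constant exon, the first. The LSD1(OE) library had a peak of 44 tags beside that exon, from 37825144 to 37825991, which scored 58.2 and had a density of 0.940 (0.683 to 1.26) against 1.28 (0.998 to 1.62) in the myogenic library. On either side of it the myogenic library had its own peaks, from 37823982 to 37824687 with a score of 81.7 and from 37827078 to 37828217 with a score of 167, while the other libraries had none there.

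A place between the second and the third constant exon of Pcdhg held peaks in all 3 libraries. Merged over the libraries it ran from 37834350 to 37837301 and began 0.997 kb after the second constant exon. The myogenic library had 1 peak of 52 tags there, with a score of 132 and a density of 1.25 (0.933 to 1.64). The adipogenic library had 1 peak of 131 tags, with a score of 125 and a density of 0.982 (0.821 to 1.17), and this was its highest score in the region. The LSD1(OE) library had 2 adjoining peaks of 142 and 79 tags, with scores of 414 and 211 and densities of 1.38 (1.16 to 1.62) and 1.33 (1.05 to 1.65). The stronger of these was the highest-scoring LSD1(OE) peak of the region, so the place with the highest score was Pcdhgc3 in the myogenic library and this intron in both adipogenic-medium libraries. This holds for scores only. The highest density was 1.45 in the LSD1(OE) library, for the peak that begins at 37807802. In the adipogenic library it was 1.14, for the peak that begins at 37850846. By density the adipogenic peak of this intron stood at percentile 6.36 of its list. Summed, the 2 LSD1(OE) peaks of this place had a density of 1.36 (1.19 to 1.55). Its interval lies just above that of the adipogenic density, whereas the adipogenic and myogenic intervals overlap. The intervals cover counting error within single libraries, the called peaks differ in length between libraries, and no difference was tested. A further LSD1(OE) peak with a score of 66.7 ended 208 bp before the last constant exon.

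**Figure D4:**
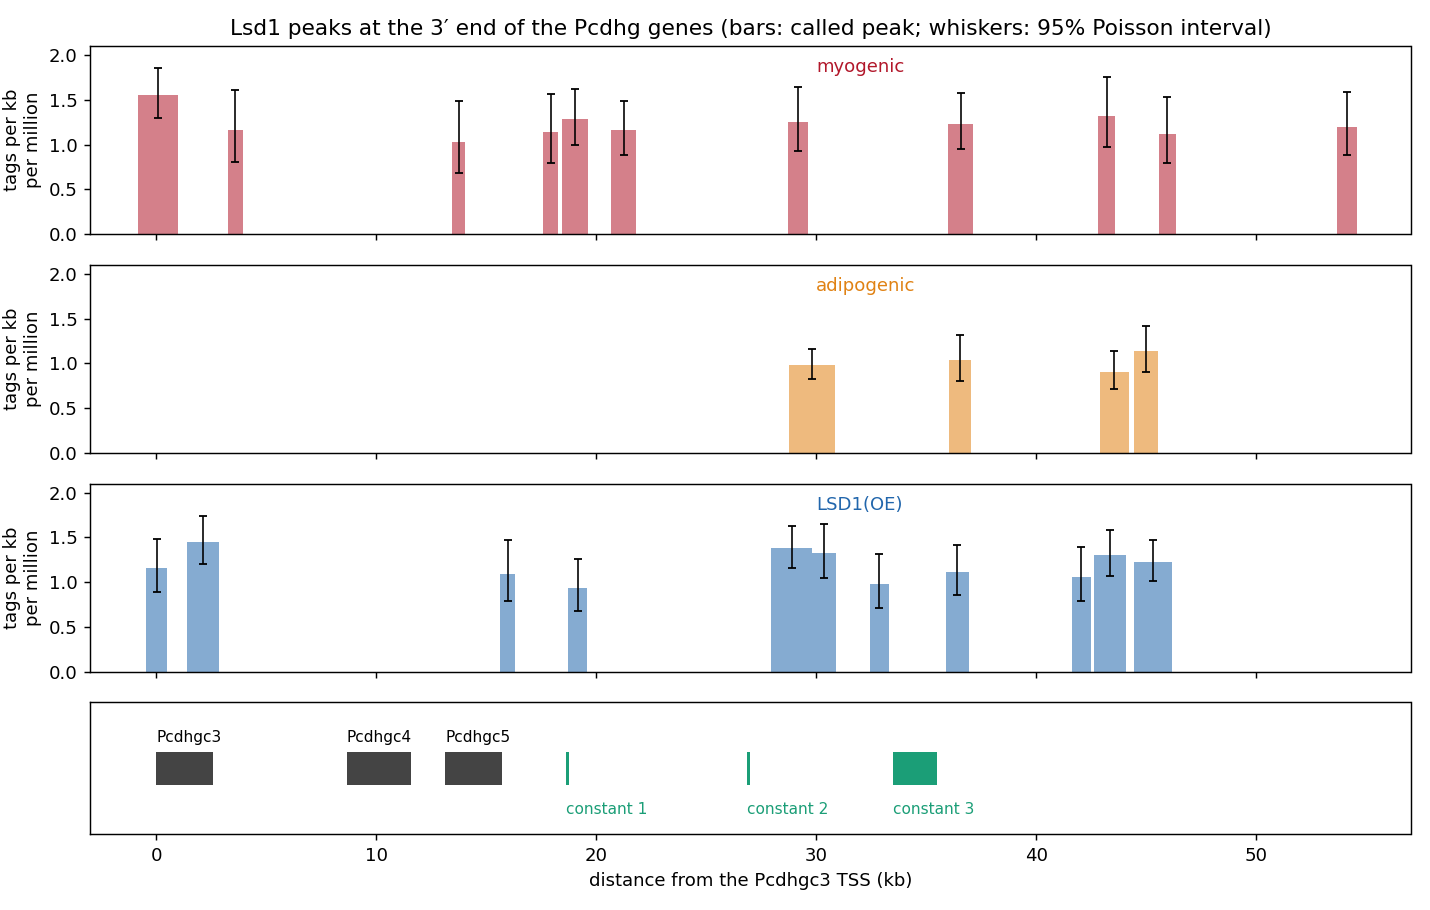
Density of ChIP tags in the called Lsd1 peaks (y axis, tags per kb of peak and per 1000000 ChIP tags) by distance from the Pcdhgc3 TSS (x axis, kb) for the 3 libraries, with the C-type variable exons and the constant exons of Pcdhg below. Each bar is as wide as its peak and whiskers are 95% Poisson intervals. The adipogenic library has no bar before the second constant exon, while the other 2 libraries have bars at the Pcdhgc3 TSS.

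Beyond the last Pcdhg exon, the 20 kb that follow held 4, 3 and 4 peaks, or 200, 150 and 200 per Mb, so 11 of the 28 peaks of the region lay there. A peak right after the array was present in all 3 libraries, and it lies in intergenic sequence that ends at Diaph1. It began 537 bp after the last constant exon in the myogenic library, 546 bp in the adipogenic and 412 bp in the LSD1(OE) library. It held 63, 69 and 64 tags, with scores of 154, 81.7 and 120 and densities of 1.23 (0.947 to 1.58), 1.04 (0.808 to 1.31) and 1.11 (0.856 to 1.42). The intervals of the 3 densities overlap.

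The other downstream peaks lay in introns of Diaph1. From 37849049 to 37850601 the 3 libraries had peaks of 47, 76 and 103 tags, with densities of 1.32 (0.970 to 1.76), 0.908 (0.716 to 1.14) and 1.31 (1.07 to 1.58). From 37850846 to 37852744 they had peaks of 39, 80 and 116 tags, with densities of 1.12 (0.794 to 1.53), 1.14 (0.901 to 1.41) and 1.22 (1.01 to 1.47). The density of the adipogenic peak in the nearer of these places was among the lowest of its list, at percentile 0.328. Enhancers of the arrays are known downstream of Pcdhg, but whether these peaks lie on them, or belong to Diaph1, was not tested.

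The LSD1(OE) library had 2 peaks outside the Pcdhg end that no other library had. The first, from 37217967 to 37218602, held 37 tags with a score of 66.2 and lies in the space between Pcdha and Pcdhb, 30.3 kb after the last Pcdha constant exon and 46714 bp before Pcdhb1. The second, from 37520082 to 37520723, held 38 tags with a score of 71.0 and lies in the single exon of Pcdhb22, where its centre was 2049 bp from the TSS and 49 bp beyond the promoter window. Of its 50-mers 85.4% were unique, the lowest share of any peak of the region, whose median was 100%. Both were weak, and neither was kept when scores were divided by the scaling factor of the ChIP tags, which gave 36.3 and 38.9 against a limit of 50.

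Merging overlapping peaks of the 3 libraries gave 17 places, 15 of them in the Pcdhg end. All 3 libraries had a peak at 4 of them (23.5%), and over the genome this was so for 20.6% of 56729 merged regions. The myogenic and LSD1(OE) libraries without the adipogenic one shared 2 places (11.8%, genome 12.2%). These are the Pcdhgc3 promoter and a place at the first constant exon of Pcdhg. At the latter the LSD1(OE) peak lay in the intron beside the exon, and only the myogenic peak overlapped the exon. The myogenic library alone had 5 (29.4%, genome 35.9%) and the LSD1(OE) library alone had 6 (35.3%, genome 20.8%). No place was in the adipogenic library alone (genome 3.7%) or in it and only 1 of the others (genome 4.38% with the myogenic and 2.45% with the LSD1(OE) library). The 4 adipogenic peaks therefore all stood where both other libraries also had peaks. Over the genome most merged regions with an adipogenic peak did so as well. All 3 libraries had a peak in 11664 of them. The adipogenic library shared 2485 with the myogenic library only and 1389 with the LSD1(OE) library only, and 2097 were its own. The share of the LSD1(OE) library alone was above that of the genome, and the other shares lay nearer to theirs. There were only 17 places, and no difference from the genome was tested.

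By score the peaks of the region were ordinary ones. Their scores ran from 52.2 to 458 in the myogenic library (median 132), from 75.2 to 125 in the adipogenic library (median 97.8) and from 58.2 to 414 in the LSD1(OE) library (median 120), while the medians of the whole lists were 122, 112 and 116. The highest, at Pcdhgc3 in the myogenic and between the constant exons in the LSD1(OE) library, stood at percentiles 86.4 and 87.1 of their lists. The highest adipogenic score stood at percentile 55.7 of its list. By density all 4 adipogenic peaks were below the median of their list, at percentiles from 0.328 to 48.3. The median densities of the region were 1.20, 1.01 and 1.11, against 1.22, 1.14 and 1.13 over the lists. Scores under 100 were held by 4 of 11, 2 of 4 and 6 of 13 peaks.

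The non-clustered protocadherins, which are single genes scattered over the genome and encode related adhesion proteins, served as a list for comparison. Of 12 such genes, 3 had a promoter peak in the myogenic library (25%), 4 in the adipogenic (33.3%) and 2 in the LSD1(OE) library (16.7%), against 40.5, 23.2 and 32.3% of all genes. Pcdh7 held the strongest, with scores of 907, 246 and 1081 from 239, 128 and 294 tags in the myogenic, adipogenic and LSD1(OE) libraries. Pcdh18 had scores of 75.4, 74.8 and 280. Pcdh19 had scores of 81.4 and 61.1 in the myogenic and adipogenic libraries and no promoter peak in the LSD1(OE) library, and Pcdh1 had a promoter peak only in the adipogenic library, with a score of 55.7. In the adipogenic library 4 of these 12 genes thus held a promoter peak where 0 of the 58 clustered genes did, and the difference was not tested. Only 4 of the 12 had a promoter peak in any library, so most of them lacked one, like most clustered genes. Pcdh7 and Pcdh18 had CpG ratios of 0.79 and 0.66. Pcdh8, Pcdh9, Pcdh10 and Pcdh17 had ratios from 0.65 to 0.71 but no promoter peak. Over all genes with a ratio of at least 0.6 the shares were 68.4, 41.3 and 55.4%.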

How the data were processed

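Single reads of 50 bp were mapped by the authors to mm10 with Bowtie, and they called peaks of each ChIP library against its own input with MACS (1.4.2 per the file headers, 1.41 per the labels) at a p cut-off of 1e-05. Each peak of the deposited lists has a count of ChIP tags after MACS limited duplicates, a score (10 times the −log10 p-value), a fold enrichment as a ratio to the local background, and an FDR in percent. The score also stands in the deposited BED files, and all peaks were the same in both. MACS scaled the smaller dataset up, which multiplied the ChIP tags by 1.90, 1.28 and 1.82 in the myogenic, adipogenic and LSD1(OE) libraries. The fold enrichment was not compared between libraries. Libraries were grouped by the sample labels.

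All deposited peaks had an FDR under 1% and were used. Assignment used 31647 curated RefSeq TSSs, with a promoter of 2000 bp either side. Peaks overlapping by at least 1 bp were merged. Each of the 3 libraries was described on its own. Shares have 95% Wilson intervals and tag counts 95% exact Poisson intervals, and with 1 library per condition no test was made. No listed peak had fewer than 27, 35 and 30 tags, respectively. Both strands of the genome were searched for 50-mers that occur once. The assignment of peaks to TSSs and the search for unique 50-mers were checked on simulated data. Every member with a promoter peak is named, as are the 4 genes with the highest score in each comparison list. The members and lists were chosen with earlier results of these data known. Python 3.11.15, NumPy 2.4.6, pandas 2.3.3, SciPy 1.17.1, Numba 0.67.0 and Matplotlib 3.10.9 were used. RNA, reads and sequences of the members are not given here.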

Additional observations from a re-analysis of the deposited data

How the results depend on the processing

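No paired analysis was possible because each condition had 1 library. The myogenic count of members with a promoter peak fell from 2 to 1, Pcdhgc5 being lost, with an FDR of at most 0.1%, with a score of at least 100, with equal numbers of peaks and with tags not scaled up. For tags not scaled up, each score was divided by the scaling factor of its library and had to reach 50. No peaks were called anew, so this setting is an approximation. The adipogenic count was 0 in every alternative. The LSD1(OE) count rose from 1 to 3 with a promoter of 5000 bp, which added Pcdhb22 and Pcdhgc5. Peaks in the region went from 11, 4 and 13 (myogenic, adipogenic, LSD1(OE)) to 7, 1 and 7 at the stricter FDR, to 7, 2 and 7 at the higher score, to 4, 4 and 7 with equal numbers, and to 7, 4 and 7 with tags not scaled up. Without flanks the myogenic and adipogenic counts were 7 and 1. With equal numbers, places with peaks in all 3 libraries went from 4 to 1 and places in 1 library from 11 to 3. The other 32 values moved by less than 1.5 times, including 2 alternatives added after the data were seen, GENCODE TSSs and counts of merged places. The smallest peaks rest on 27 to 35 tags, so weaker binding at the members was not detectable in these lists.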

Other observations

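Genes whose products act on the clustered promoters were looked at as a second list: CTCF, cohesin subunits, factors that load or release cohesin, and chromatin silencers. Of 12 such genes, 10 had a promoter peak in the myogenic (83.3%), 4 in the adipogenic (33.3%) and 10 in the LSD1(OE) library (83.3%), against 40.5, 23.2 and 32.3% of all genes. The highest scores were at Nipbl, the cohesin loader, with 999, 400 and 628 in the myogenic, adipogenic and LSD1(OE) lists. Stag1, a cohesin subunit, had scores of 823, 54.8 and 189. Smchd1, which silences clustered promoters and the inactive X, had 611 and 146 in the myogenic and LSD1(OE) lists and no promoter peak in the adipogenic list. Rad21, the cleavable subunit of cohesin, had 489 and 80.7 in the same 2 lists and none in the adipogenic list. Stag1, Nipbl, Wapl and Dnmt3b had a promoter peak in all 3 libraries, and Smc1a had none in any; Wapl, Dnmt3b, Smc1a and Stag2 are named here after their values were seen. The CpG ratio at these 12 genes ran from 0.78 at Smc1a to 1.04 at Stag2. Over all genes with a ratio of at least 0.6 the shares were 68.4, 41.3 and 55.4%. The adipogenic share of the list was below this background and the other 2 were above it. With only 12 genes each share changes much with a single gene, and no difference from either background was tested.

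Pcdh1, a non-clustered protocadherin on the same chromosome, lies on the minus strand, and its nearer end is 355 kb beyond the last member. Its TSS was the nearest for 11, 11 and 10 peaks of the myogenic, adipogenic and LSD1(OE) lists. Their scores ran from 68.0 to 997, from 55.7 to 446 and from 54.8 to 1429. The strongest LSD1(OE) peak lay 64455 bp from the Pcdh1 TSS and outside the gene, and the strongest myogenic and adipogenic peaks lay at -2390 and -2933 bp from it, where a minus sign means upstream.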
